A study of Mus musculus with 6 samples.

Results

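The miRNAs miR-204 and miR-211 were followed in small RNA libraries of mouse prefrontal cortex. Their members were the sequences whose deposited name, without its isoform suffix, was mmu-miR-204-5p, mmu-miR-204-3p or mmu-miR-211-5p. These are 3 of the 1013 distinct small RNA sequences listed, 1 for each name, and all 3 had enough reads to be among the 639 tested. The libraries came from male C57BL/6 mice, an inbred strain, aged 30 weeks per the labels, with a starting age of 5 weeks. By daily stomach gavage over 6 months they received either water (0 mg per kg, the controls) or 50 mg per kg of PS-NP, polystyrene plastic in particles of nanometre size. Each group had 3 libraries, and nothing in the labels ties a library to a separate animal, so a p-value here reflects the spread among libraries and that spread may be technical. Control libraries held 9445601, 6170654 and 6441890 assigned reads and PS-NP libraries 7726729, 8440665 and 9905746.

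Both hairpins sit inside genes of TRPM cation channels, miR-204 in Trpm3 and miR-211 in Trpm1, and are processed from the introns of those transcripts. A hairpin yields a 5p and a 3p arm, of which the guide arm is loaded into Argonaute and pairs with messenger RNAs through its seed, bases 2 to 8. miR-204 is known for its high level in the retinal pigment epithelium and in the choroid plexus, the epithelium that secretes cerebrospinal fluid, and miR-211 for its level in melanocytes. Their guide arms share a seed, which makes them 1 family.

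The RefSeq mature sequences of GRCm38.p6 are printed first, since the family is defined by them. Capitals mark the seed.
miR-204-5p: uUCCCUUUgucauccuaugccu
miR-211-5p: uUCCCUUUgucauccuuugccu
miR-204-3p: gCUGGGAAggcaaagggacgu
miR-211-3p: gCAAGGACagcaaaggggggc
The guide arms miR-204-5p (chr19:22750610-22750631, plus strand) and miR-211-5p (chr7:64205831-64205852, plus strand) were identical at 21 of 22 bases. The single difference was T17A in DNA letters, counted from the 5′ end, with the miR-211-5p base first. Of the mouse mature miRNAs in RefSeq, 3 carried the seed UCCCUUU, these 2 and miR-7670-3p. The passenger arm miR-204-3p (chr19:22750649-22750669) has another seed, CUGGGAA, which only miR-7684-5p shared in RefSeq.

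The hairpins are shown with both arms in capitals, because the base that follows each 5p arm differs between them and bears on how the deposited sequences were named.
Mir204: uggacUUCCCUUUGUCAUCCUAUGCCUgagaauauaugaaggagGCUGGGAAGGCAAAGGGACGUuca
Mir211: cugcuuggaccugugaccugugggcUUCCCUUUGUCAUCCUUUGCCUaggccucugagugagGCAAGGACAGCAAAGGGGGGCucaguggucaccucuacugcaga
The 68-base Mir204 hairpin (chr19:22750605-22750672) lay on the plus strand within Trpm3 (22139046 to 22995410), which is also on the plus strand. In GENCODE M21, 18 of 24 Trpm3 transcripts spanned it, all 18 placed it in an intron, and 0 in an exon. The shortest such intron ran from 22749846 to 22766633. The 106-base Mir211 hairpin (chr7:64205806-64205911) lay on the plus strand within Trpm1 (64153835 to 64269775), where 12 of 23 transcripts spanned it, all 12 with the hairpin in an intron and 0 in an exon. The shortest such intron there ran from 64204594 to 64208275.

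The deposited entry labelled miR-211-5p did not hold the miR-211-5p reference sequence. Its full name, mmu-miR-211-5p_R+1_1ss17TA, records 1 extra base at the 3′ end and a T17A substitution, which is the base that sets miR-204-5p apart. The deposited 5p sequences are aligned here with the miR-211-5p reference in DNA letters. Capitals mark base 17 and any base beyond the 22nd.
miR-211-5p, RefSeq: ttccctttgtcatcctTtgcct
miR-204-5p, deposited: ttccctttgtcatcctAtgcct
labelled miR-211-5p, deposited: ttccctttgtcatcctAtgcctA
oan-miR-204-5p_R+3, deposited: ttccctttgtcatcctAtgcctGTA
mdo-miR-204_R+2, deposited: ttccctttgtcatcctAtgcctGG
All 4 deposited sequences with this seed began with the whole 22 bases of miR-204-5p, and 0 of the 1013 sequences contained the 22 bases of the miR-211-5p reference. The labelled entry differed at 1 position from either hairpin, G23A against Mir204 and T17A against Mir211. Its last A is templated by Mir211 but not by Mir204, and its base 17 is templated by Mir204 but not by Mir211. The sequences named for platypus (oan) and opossum (mdo) differed from Mir204 at 2 and 1 positions and from Mir211 at 4 and 2. The table lists 1 sequence per entry, and whether every read counted in an entry carries it is not stated. The entry is therefore called "labelled miR-211-5p" below. The labelled entry was 1 of 4 such cases among 25 sequences that had a substitution in their name and whose mouse miRNA name matched RefSeq, in that it began with the reference of another mouse miRNA. The entries named for let-7j, miR-27a-3p and miR-376c-5p, which began with the references of let-7i-5p, miR-27b-3p and miR-376b-5p, were the other 3.

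miR-204-5p, the guide arm, was an abundant miRNA of this tissue. Its reads numbered 15221, 38315 and 20143 in control libraries 1 to 3 and 13650, 64672.5 and 47114 in PS-NP libraries 1 to 3. A value ending in 0.5 can arise where a read that matches several entries is divided among them, and the labelled miR-211-5p entry of the same library also ended in 0.5. Scaled to CPM (counts per 1000000 reads, on TMM-scaled library sizes), miR-204-5p stood at 1760, 5604 and 3249 in controls and 2048, 7199 and 4266 with PS-NP. In both groups library 1 was lowest and library 2 highest, and the groups overlapped. By CPM it ranked between 23rd and 61st of the 1013 sequences, highest in PS-NP library 2 and lowest in control library 1. Its mean over all 6 libraries, 4021 CPM, was 37th, between miR-24-3p_R-2 at 4389 and miR-149-5p at 3566 CPM, from which it did not differ beyond its SD of 2110 CPM. A level within a library also reflects how well a sequence ligates, so ranks between miRNAs are approximate.

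miR-204-3p, the passenger arm of the same hairpin, had 87, 175 and 61 reads in controls and 42, 225 and 128 with PS-NP. That was 10.1, 25.6 and 9.84 CPM in controls and 6.30, 25.1 and 11.6 CPM in PS-NP libraries. Library 2 was again the highest of each group, and the other 4 libraries lay at 11.6 CPM or below.

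The labelled miR-211-5p entry had 90, 104 and 72 reads in controls and 55, 176.5 and 134 with PS-NP. In CPM it measured 10.4, 15.2 and 11.6 in controls and 8.25, 19.6 and 12.1 with PS-NP. Its range was narrower than that of the miR-204 arms, with the highest library 2.37 times the lowest against 4.09 times for miR-204-5p and 4.06 times for miR-204-3p.

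PS-NP libraries were compared with control libraries over all tested sequences. No member passed. The mean of miR-204-5p was 3538 ± 1938 CPM in the control group and 4504 ± 2584 CPM in the PS-NP group (SD, n = 3 per group). The log2 difference was 0.35 (SE 0.49, 95% interval −0.77 to 1.46), with an adjusted p of 0.906 from edgeR's quasi-likelihood test. The interval spans a fold of 0.588 to 2.76, so a change of 2-fold upward could not be told from none. That of miR-204-3p was 15.2 ± 9.03 and 14.3 ± 9.67 CPM, a log2 difference of −0.08 (SE 0.54, −1.31 to 1.16; 0.16 with the GC trend of each library removed) and an edgeR adjusted p of 0.981. The labelled miR-211-5p entry had 12.4 ± 2.5 and 13.3 ± 5.76 CPM, a log2 difference of 0.11 (SE 0.35, −0.69 to 0.90) and an edgeR adjusted p of 0.952.

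Over all sequences tested, 0 of 639 passed (0.0%; edgeR's smallest adjusted p was 0.906), with 15 at an unadjusted p under 0.05 (2.35%); DESeq2 and limma-voom also called 0, with 15 and 17 at an unadjusted p under 0.05. Of the 3 members, 0 had an unadjusted p under 0.05 in this fit and 0 had groups that did not overlap, where 9.55% of tested sequences did not overlap. The members' median log2 difference was 0.11, against −0.02 over all tested sequences. The differences of the members rested on single libraries. Without PS-NP library 2 the log2 difference of miR-204-5p was −0.19, that of miR-204-3p −0.77 and that of the labelled miR-211-5p entry −0.30. Without control library 2 it was 0.84, 0.52 and 0.28 in the same order, and without control library 1 that of miR-204-5p was 0.03.

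**Figure D1:**
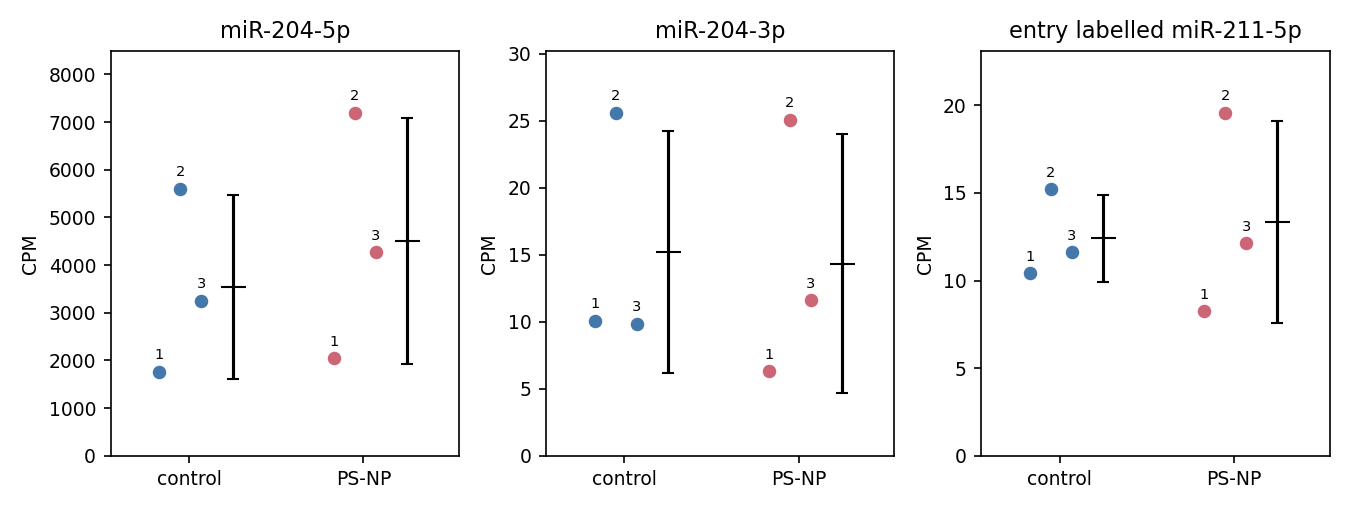
CPM of the 3 members in each library (points, numbered as in the labels) with the mean and SD of each group of 3 libraries (black); each panel has its own axis, starting at 0. Library 2 was the highest of both groups in every panel, and control and PS-NP points overlapped.

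**Figure D2:**
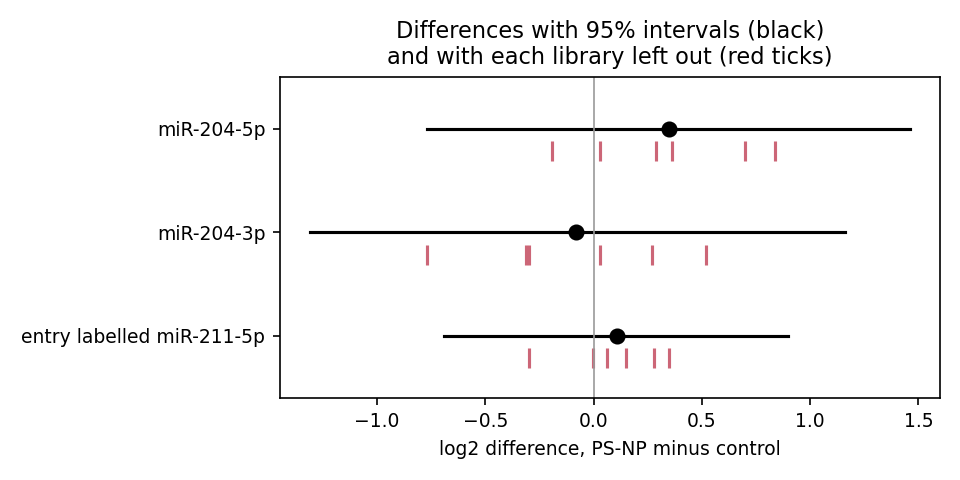
Log2 difference, PS-NP minus control, of the 3 members from edgeR (black points) with 95% intervals (black lines) and the value with each of the 6 libraries left out in turn (red ticks). Every interval holds 0, and the ticks of each member fall on both sides of 0, from −0.19 to 0.84 for miR-204-5p.

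miR-204-5p varied more between libraries of 1 group than nearly all miRNAs of like abundance. Its SD of log2 CPM within groups was 0.87, while the median was 0.32 over the 639 tested sequences and 0.24 over the 228 whose mean reached 100 CPM. Of those 228 sequences 4 had a larger SD. They were miR-1298-5p at 2.01, miR-200b-3p_R+1 at 1.52, miR-34c-5p at 1.0 and miR-298-5p_R-2 at 0.97. Among the 77 sequences whose mean reached 1000 CPM, miR-204-5p had the largest SD, ahead of miR-129-1-3p at 0.59, and their median was 0.22. Counting error was small beside this spread. The reads of miR-204-5p in a library carried a counting error of 0.393% to 0.856%, against 6.67% to 15.4% for miR-204-3p and 7.53% to 13.5% for the labelled miR-211-5p entry. Such errors cover counting alone, since reads without molecular identifiers are not independent molecules. The SD of log2 CPM within groups was 0.89 for miR-204-3p and 0.48 for the labelled miR-211-5p entry. In cortex samples such as these, more cells that make a miRNA and more of the miRNA per cell cannot be told apart.

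**Figure D3:**
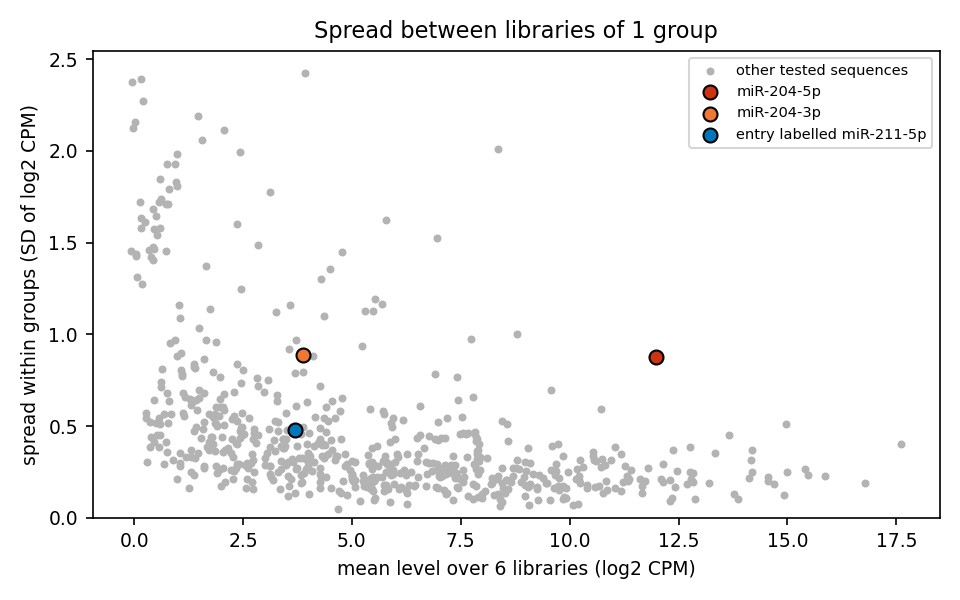
Spread within groups (SD of log2 CPM after removal of each group's mean) against the mean level (log2 CPM) for the 639 tested sequences, with the 3 members coloured. miR-204-5p, at 0.87, lies above every other sequence with a mean of at least 1000 CPM.

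Arm usage of the Mir204 hairpin strongly favoured the 5p arm in every library. There were 175, 218.9 and 330.2 reads of miR-204-5p for each read of miR-204-3p in controls and 325, 287.4 and 368.1 with PS-NP. The log2 ratio (with 1 read added to each arm) was 7.85 ± 0.46 in controls and 8.33 ± 0.18 with PS-NP (SD, n = 3 per group), a difference of 0.48. This difference did not pass (exact permutation test, two-sided, p = 0.3, where 3 against 3 libraries cannot go below 0.1). The 3p arm took 0.568% of the reads of both arms in control library 1 (Wilson 95% interval 0.461% to 0.70%) and 0.271% in PS-NP library 3 (0.228% to 0.322%). Control library 3, at 0.302%, lay among the PS-NP libraries, which ran from 0.271% to 0.347%.

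The ratio of miR-204-5p to the labelled miR-211-5p entry did not differ between groups beyond its spread. There were 169.1, 368.4 and 279.8 reads of miR-204-5p for each read of the entry in controls and 248.2, 366.4 and 351.6 with PS-NP. The log2 ratio was 8.0 ± 0.57 and 8.30 ± 0.32 (SD, n = 3 per group), a difference of 0.29 (exact permutation test, two-sided, p = 0.7). These 2 ratios were the only ones compared, with Benjamini-Hochberg adjusted exact p of 0.6 and 0.7. Across libraries the entry took the largest part of the summed reads where miR-204-5p was lowest. Those reads are nearly all miR-204-5p and the entry had the narrower range, so this is not a separate observation. The entry held 0.588% in control library 1 (Wilson 95% interval 0.479% to 0.722%) and 0.401% in PS-NP library 1 (0.309% to 0.522%). It held 0.271% in control library 2 (0.224% to 0.328%) and 0.272% in PS-NP library 2 (0.234% to 0.315%), where miR-204-5p was highest.

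**Figure D4:**
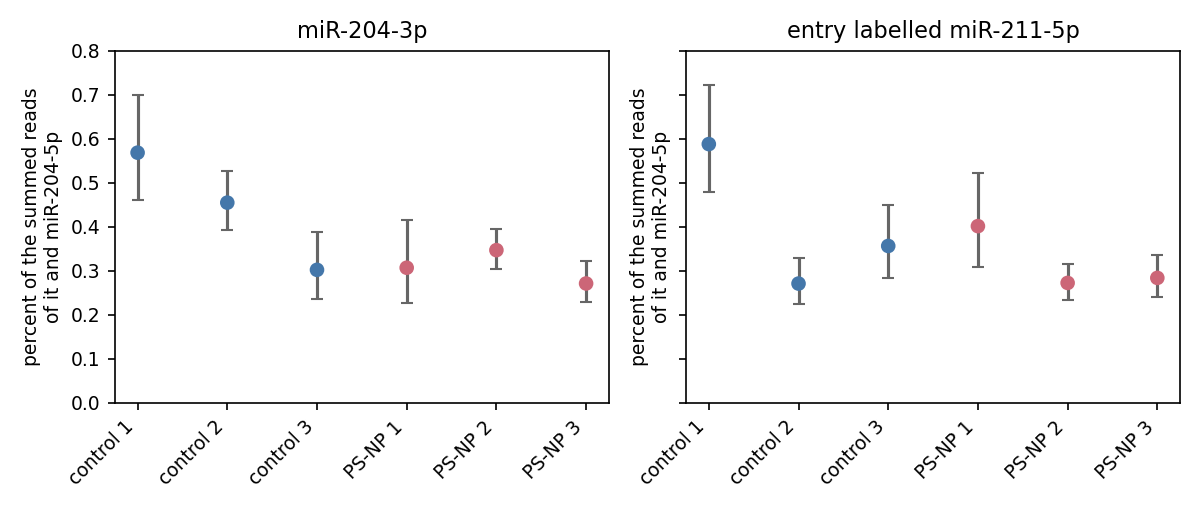
Reads of miR-204-3p (left) and of the labelled miR-211-5p entry (right) as a percentage of the summed reads of it and miR-204-5p in each library, with Wilson 95% intervals for counting error; blue, control, and red, PS-NP. The left panel falls between 0.271% and 0.568% and the right between 0.271% and 0.588%, with control library 1 the highest in both.

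The platypus-named sequence, which extends miR-204-5p by 3 bases, was lower than the labelled miR-211-5p entry in every library. It had 26, 31 and 32 reads in controls and 23, 74 and 45 with PS-NP, which was 3.01 to 5.16 CPM and 3.45 to 8.24 CPM. Its log2 difference was 0.32 (SE 0.43, edgeR adjusted p 0.906). The opossum-named sequence was listed at 0, 5 and 0 reads in controls and 0, 10 and 5 with PS-NP, and was too low to be tested. All reads carrying the UCCCUUU seed summed to 15337, 38455 and 20247 in controls and 13728, 64933 and 47298 with PS-NP, and miR-204-5p itself made up 99.2% to 99.6% of them. Together the 3 members held 0.163% to 0.625% of control reads and 0.178% to 0.771% of PS-NP reads, at a summed level of 3565 ± 1949 and 4532 ± 2599 CPM (SD, n = 3 per group).

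The sequences most like miR-204-5p in their pattern over the 6 libraries included its own passenger arm. Also among them were a pair from the Htr2c locus, the gene of a serotonin receptor, and a pair from chromosome 12. Likeness was 1 minus the variance of the difference in log2 CPM divided by the summed variances, so that 1 means equal profiles. It also falls where the spreads of the sequences differ in size, even if their libraries run in the same order. It is a description over 6 libraries that share their depth and scaling; 638 sequences were ranked. The 5 closest were miR-448-5p (0.926), miR-337-3p (0.918), miR-1298-3p (0.878), miR-540-5p_R-4 (0.874) and miR-204-3p (0.870). The labelled miR-211-5p entry ranked 20th at 0.762 and the platypus-named sequence 22nd at 0.755. Their within-group SDs were 0.48 and 0.538, against 0.72 to 1.13 for the 5 closest, so these ranks also reflect a smaller spread. In RefSeq, miR-448-5p (chrX:147158221-147158242) and miR-1298-3p (chrX:147064970-147064991) lie within Htr2c on its own strand. miR-337-3p (chr12:109585850-109585871) and miR-540-5p (chr12:109586085-109586107) lie close to each other with no host gene found on the same strand. Control libraries 1 to 3 held 18.2, 69.0 and 30.5 CPM of miR-1298-3p, and PS-NP libraries 14.7, 59.8 and 74.7 CPM. For miR-448-5p the values were 4.86, 18.7 and 10.3 CPM in controls and 8.85, 18.2 and 17.3 CPM in PS-NP libraries. In both of these, library 1 was the lowest of each group, as in miR-204-5p. The same held for miR-337-3p, at 4.2, 10.1 and 6.3 CPM in controls and 3.6, 9.7 and 9.6 CPM with PS-NP. It also held for miR-540-5p_R-4, at 1.16, 4.39 and 2.42 CPM in controls and 1.35, 3.90 and 5.70 CPM with PS-NP. At such low levels the order of libraries rests on few reads. These sequences were picked by their likeness to miR-204-5p, so the shared low library is not a separate observation.

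Cell type markers were given beside the members, those of choroid plexus because miR-204 is known for its level there. Of the 7 miRNAs listed for choroid plexus and ependyma (the miR-34b/c and miR-449 group of ciliated cells), 5 were among the deposited names and 3 could be tested. Their summed level was 422.1, 587.4 and 673.5 CPM in controls and 223.7, 1174 and 790.1 CPM in PS-NP libraries. PS-NP library 2 was highest and PS-NP library 1 lowest. Among controls library 3 was highest, whereas miR-204-5p was highest in control library 2. Most of the sum was miR-34c-5p, at 253.6, 346.1 and 474.2 CPM in controls and 147.2, 866.6 and 589 CPM in PS-NP libraries. The mouse-named entries of miR-449a-5p and miR-34b-5p were each listed at 0 in 5 of 6 libraries. A sequence named for opossum, mdo-miR-34b-5p, was not on the list and had a mean level of 3.59 log2 CPM, so a listed 0 does not show that the arm was absent. Of the 3 tested, 0 passed, and 2 had a positive log2 difference, among them miR-34c-5p with 0.58 (SE 0.53, edgeR adjusted p 0.906). The median of the 3 was 0.23. The likeness of miR-34c-3p, miR-34c-5p and miR-34b-3p to miR-204-5p was 0.810, 0.795 and 0.766. Single markers of other lists had like values: the neuronal miR-137-3p 0.843, the retinal and sensory miR-182-5p 0.765 and the microglia and leukocyte miR-155-5p 0.725. The other tested markers of those lists had lower values, but likeness also falls where spreads differ in size. The neuronal miR-9-5p, miR-128-3p and miR-138-5p had within-group SDs of 0.183, 0.188 and 0.168, against 0.87 for miR-204-5p. A low likeness of such markers does not by itself show a different pattern over the libraries. The values of these other markers are given by list. They ran from −0.265 to 0.355 (neuron), −0.197 to 0.59 (retina and sensory epithelium) and −0.369 to 0.612 (microglia and leukocyte). The part of any of these cell types in the level of miR-204-5p was not tested.

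The epithelial miR-200 family ran differently over the libraries. Its 5 members, of which 4 could be tested and 0 passed, summed to 158.7, 40.4 and 252.9 CPM in controls and 320.8, 200.4 and 37.1 CPM in PS-NP libraries. Control library 2, which was high in miR-204-5p, was among the lowest, and PS-NP library 1, which was low in miR-204-5p, was the highest. The order was not a plain reversal. PS-NP library 2, the highest in miR-204-5p, lay above control library 1, the lowest in miR-204-5p. Their likeness to miR-204-5p lay between −0.435 and −0.314. Of the retinal and sensory epithelium markers, all 4 were tested and 0 passed, with a sum of 53.7 to 59.2 CPM in controls and 34.7 to 56.3 CPM in PS-NP libraries. The neuronal markers as a sum were abundant in every library, at 176161 to 186989 CPM in controls and 150136 to 206192 CPM in PS-NP libraries. Most of that sum was miR-128-3p, miR-124-3p and miR-9-5p. The control and PS-NP means were only 125.9 and 165.6 CPM for miR-137-3p and 520.7 and 539.4 CPM for miR-138-5p. Oligodendrocyte markers summed to 2044 to 2510 CPM and 2010 to 2482 CPM. Microglia and leukocyte markers summed to 393.7 to 622.9 CPM and 532 to 692.5 CPM, endothelial markers to 1487 to 1967 CPM and 1991 to 2535 CPM, and erythroid markers to 37.2 to 91.9 CPM and 48.8 to 71.7 CPM, in controls and PS-NP respectively. In these lists 0 of 20 tested markers passed.

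**Figure D5:**
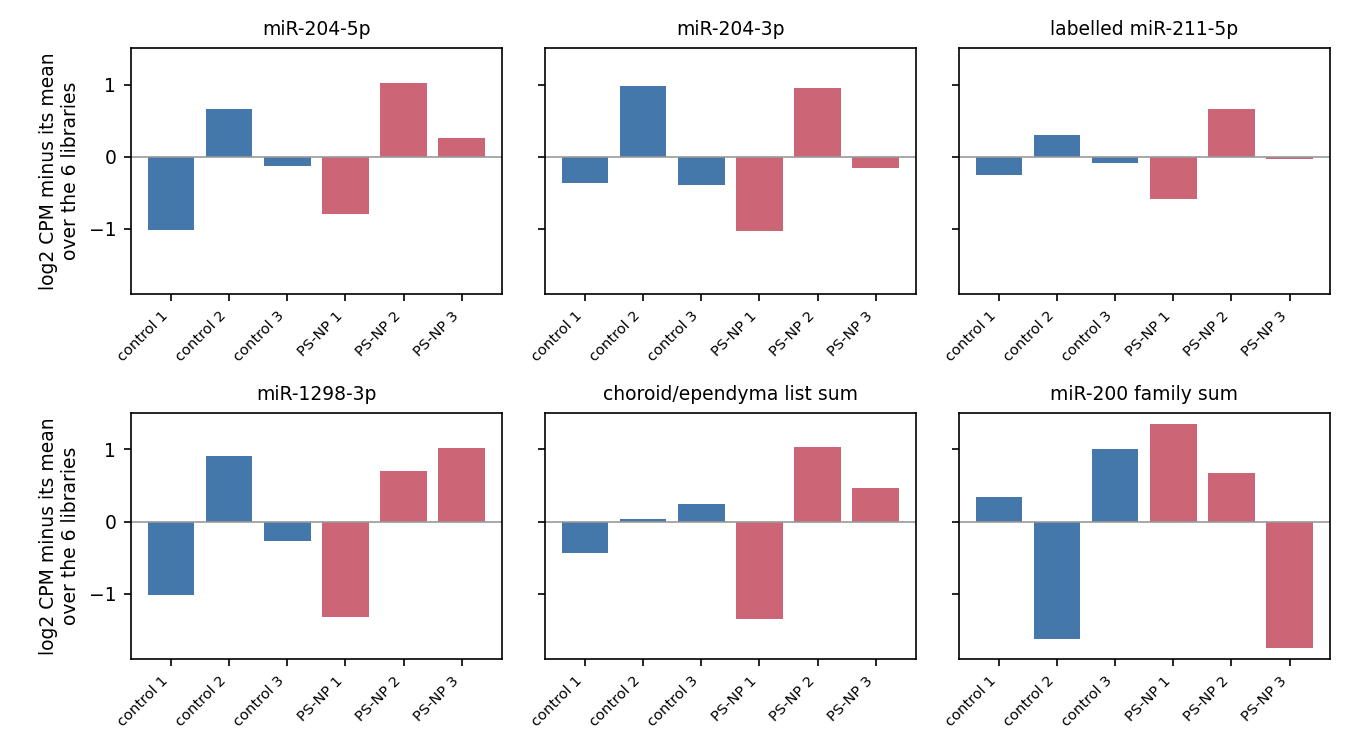
Log2 CPM minus its mean over the 6 libraries for the 3 members, miR-1298-3p, the summed choroid plexus and ependyma list and the summed miR-200 family; blue, control, and red, PS-NP. miR-204-5p and miR-1298-3p, which was picked by its likeness to miR-204-5p, are low in library 1 of both groups. There the miR-200 sum is above its mean (158.7 and 320.8 CPM).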

How the data were processed

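Small RNA from 6 prefrontal cortex libraries was analysed; the labels' protocols speak of 9. RNA was extracted with Trizol and libraries made with a TruSeq small RNA kit; per the labels' protocols, ACGT101-miR filtered out adapter dimers, junk and reads of other RNA classes and repeats. For the build, the miRBase release and the mapping settings, the sources used here give nothing. The deposited raw values are estimated counts per entry, divided among entries that share reads; 86.8% of them were whole numbers (within 1e-06), and 95.0% after the 1115 entries were summed to 1013 sequences. The deposited norm values are a normalized signal, whose median ratio to the raw values was 0.714 to 1.27 per library. They entered 1 alternative only, through that ratio. A further 3 table lines were not analysed here. Of 3981 whole values above 0 on single entries, 18 were under 5 and 256 exactly 5, so a listed 0 may stand for a few reads.

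Sums were rounded. The test took the 639 sequences that reached 10 reads in at least 3 libraries and was run with edgeR 4.0.16 (TMM factors 0.863 to 1.12, quasi-likelihood, group only, Benjamini-Hochberg threshold 0.05), tested first on simulated data. The common biological coefficient of variation was 30.6%. Alternatives used DESeq2 1.42.0, limma 3.58.1 and those listed in the closing section. Ratios were tested by exact permutation with scipy 1.17.1. Sequences and coordinates came from RefSeq (GRCm38.p6; all 3 members matched by name) and GENCODE M21. The rule for named miRNAs took the members, sequences sharing their seed, listed markers, neighbours in rank and the 5 most alike; other names were chosen after values were seen. The members and lists were chosen with earlier results of these data known.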

Additional observations from a re-analysis of the deposited data

How the results depend on the processing

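The differences of the miR-204 arms did not pass under any of 18 alternatives, nor that of the labelled miR-211-5p entry under the 17 that gave it a value, and no setting called a sequence in the whole table. Over the settings that kept all libraries, the difference (log2) was 0.27 to 0.38 for miR-204-5p, −0.15 to 0.16 for miR-204-3p and 0.0032 to 0.15 for the labelled miR-211-5p entry. For miR-204-3p the positive value, 0.16, came with the GC trend of each library removed, and the cause was not tested. With single libraries left out, the ranges were −0.19 to 0.84, −0.77 to 0.52 and −0.30 to 0.35, and the ratios differed by log2 values of 0.27 to 0.73 (miR-204-3p) and −0.01 to 0.55 (labelled miR-211-5p entry), where 2 against 3 libraries cannot pass an exact test. Leaving out single libraries moved the summed level of the members from 3565 CPM to between 2526 and 4458 in controls and from 4532 to between 3176 and 5767 with PS-NP. Summing every sequence that begins with miR-204-5p, chosen after the data were seen, gave 0.35. Whether the replicate numbers pair the libraries cannot be told from 3 libraries per group. In their deviations from the group mean, same-numbered libraries correlated at 0.244, 0.154 and −0.175, and differently numbered ones at −0.419 to 0.372. With the replicate number as a block, 32 sequences had an unadjusted p under 0.05 instead of 15 and 0 passed. For miR-204-5p the block gave 0.32 (SE 0.11, edgeR unadjusted p 0.0274, against 0.496 without the block, and adjusted p 0.748), for miR-204-3p −0.15 and for the labelled entry 0.04, and the ratios under the block stayed at 0.48 and 0.29. Counting error was 0.856% at most for miR-204-5p and 15.4% at most for the other members.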
